A study of Mus musculus with 6 samples.

Results

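Of the 24956 rows of an RNA-seq table of mouse intestinal organoids, 10 genes of the Hippo pathway and its YAP/TAZ output are described here: Yap1, Wwtr1, Tead1, Lats2, Amotl2, Ajuba, Ctgf, Cyr61, Ankrd1 and Thbs1. They were taken by gene symbol, and 10 of 10 symbols had 1 row each. Ctgf and Cyr61 are the symbols the table uses for the genes now called Ccn2 and Ccn1.

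The data were RPKM values, reads scaled to transcript length and library depth, from 6 libraries of total RNA. Organoids are cultures of intestinal epithelium that arrange themselves into crypt-like and villus-like parts. 3 libraries came from low glutamine medium and 3 from control medium, and both groups carried the Apc Min genotype, a truncating allele of the beta-catenin regulator Apc that predisposes mice to intestinal adenomas. The study's title concerns alpha-ketoglutarate, a metabolite made from glutamine, in Wnt signalling and differentiation. Neither the glutamine concentrations nor the length of treatment, the age and number of the animals or the number of organoid lines were given in the sources used here. Replicates are described as biological, but not as separate animals or separate cultures, so the p-values cover the spread among these 6 libraries, which may be technical.

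Transcripts of the sex chromosomes separated the groups. Xist, which silences an X chromosome, measured 0.0350, 0.0271 and 0.0237 RPKM in low glutamine and 90.5, 83.1 and 88.1 RPKM in control. The Y-linked Eif2s3y stood at 26.6, 25.2 and 31.4 RPKM in low glutamine and was listed at 0 in every control library. Medium and this difference went together in every library and cannot be told apart for any gene below. The 10 genes are autosomal. Estimated depths were 28.3 to 34.0 M (mega) reads in low glutamine and 24.4 to 35.4 M reads in control. All 8 epithelial markers checked were present, at a summed 2542 to 2625 RPKM in low glutamine and 1970 to 2131 RPKM in control, and they moved in both directions. By limma, 5 were higher, among them the stem cell marker Lgr5 at 113 ± 3.87 RPKM in low glutamine and 42.5 ± 1.14 RPKM in control. The other 3 were lower, Vil1 of the brush border at 133 ± 6.66 and 190.4 ± 2.16 RPKM in the same order, the transcription factor Cdx2 at 65.6 ± 0.986 and 97.1 ± 4.67 RPKM, and Krt19 at 281 ± 10.7 and 399 ± 5.05 RPKM. The part of this shift in the results below was not tested. In libraries made from whole cultures, fewer cells of a type and less RNA per cell cannot be told apart.

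The Hippo pathway is a kinase cascade that limits tissue growth. The kinases Stk3 and Stk4, with the scaffold Sav1, activate Lats1 and Lats2, which phosphorylate the coactivators YAP (gene Yap1) and TAZ (gene Wwtr1) and keep them out of the nucleus. Unphosphorylated YAP and TAZ bind TEAD transcription factors and raise genes such as Ctgf, Cyr61 and Ankrd1. Some of these targets, Lats2 and Amotl2 among them, restrain YAP in turn. In the intestine YAP is known for its part in regeneration after injury and for its activity in Apc mutant tumours.

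Because the known DNA contact of this pathway is the TEAD site, the promoters were read for its 6-base core, GGAATG on either strand (CATTCC on the other). RefSeq promoter windows of build GRCm38.p6, from 250 bases before to 50 bases after an annotated start, were matched for 7 of the 10 genes. Tead1, Ctgf and Thbs1 were not matched. All 7 matched genes had at least 1 core match, and Ajuba and Ankrd1 had 2 each. Of all 27025 genes with a promoter window, 16.6% had a match. Counted by window, 14.7% of 32851 had a match and 1.36% had 2 or more. The genes were chosen as pathway members and known targets, so this count describes them and is no test. The stretches that hold the matches are shown because they place the motif in genes whose RNA differed between the groups and in Yap1, whose RNA did not pass the test. They are written 5′ to 3′ in the direction of the gene, with the core in capitals. Bases inside the RefSeq gene bounds are left out, except for Amotl2. Its annotated start lies within those bounds, and only the surroundings of the match are given. The Yap1 start also lies within its gene bounds, so the stretch given ends before that start. The Lats2 match falls within the bounds of its gene, so no stretch is given for Lats2.

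Yap1 (chr9:8004639-8004846, minus strand): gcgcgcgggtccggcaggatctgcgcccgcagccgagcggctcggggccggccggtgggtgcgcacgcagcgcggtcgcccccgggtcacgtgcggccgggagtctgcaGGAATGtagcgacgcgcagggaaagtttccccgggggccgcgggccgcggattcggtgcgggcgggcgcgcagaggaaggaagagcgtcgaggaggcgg
Wwtr1 (chr3:57575911-57576160, minus strand): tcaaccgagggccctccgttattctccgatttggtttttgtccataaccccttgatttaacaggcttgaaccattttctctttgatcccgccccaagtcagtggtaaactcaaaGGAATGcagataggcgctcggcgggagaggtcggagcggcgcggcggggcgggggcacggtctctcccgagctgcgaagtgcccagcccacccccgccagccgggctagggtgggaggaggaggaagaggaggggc
Amotl2 (chr9:102717727-102717756, plus strand): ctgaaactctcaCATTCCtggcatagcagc
Ajuba (chr14:54577662-54577911, minus strand): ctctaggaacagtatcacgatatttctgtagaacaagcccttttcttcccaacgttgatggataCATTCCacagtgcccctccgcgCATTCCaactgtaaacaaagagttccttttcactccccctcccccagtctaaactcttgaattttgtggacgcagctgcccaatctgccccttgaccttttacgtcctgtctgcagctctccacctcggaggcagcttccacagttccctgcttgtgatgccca
Cyr61 (chr3:145649986-145650235, minus strand): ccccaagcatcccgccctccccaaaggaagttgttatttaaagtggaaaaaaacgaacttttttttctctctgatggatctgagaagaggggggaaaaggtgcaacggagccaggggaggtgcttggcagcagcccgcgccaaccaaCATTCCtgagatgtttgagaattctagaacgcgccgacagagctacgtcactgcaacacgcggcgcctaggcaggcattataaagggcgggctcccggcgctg
Ankrd1 (chr19:36119845-36120094, minus strand): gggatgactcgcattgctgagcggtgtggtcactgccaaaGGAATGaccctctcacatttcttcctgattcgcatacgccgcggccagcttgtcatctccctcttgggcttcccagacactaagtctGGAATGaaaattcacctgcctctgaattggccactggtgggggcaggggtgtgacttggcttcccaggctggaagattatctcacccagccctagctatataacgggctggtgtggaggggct

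The matches began 141 bases before the start in Yap1, 136 in Wwtr1, 65 in Amotl2, 186 and 164 in Ajuba, 103 in Cyr61, and 210 and 123 in Ankrd1. In Lats2 the match lay 4 bases after one of its annotated starts and a further annotated start had none. The window of a second Wwtr1 start held the same match. The 7-base motif TGANTCA of AP-1, a factor that often binds beside TEAD, was in 0 of the 7 genes. It was in 7.81% of all windows, a share counted by window and not by gene. The core was in 14.6% of the tested genes that were higher in low glutamine, 15.1% of those that were lower and 12.3% of those that did not pass, given as a description with no test. A match is a run of letters and does not show binding.

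**Figure D1:**
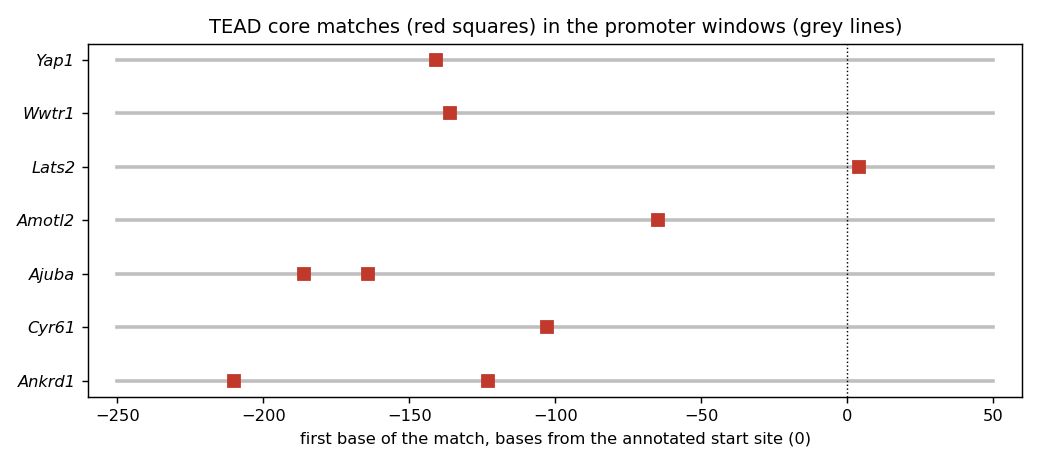
Positions of TEAD core matches (red squares, at the first base of the match) in the promoter windows (250 bases before to 50 after the start) of 7 genes, in bases from the annotated start. All matches lie before the start except that of Lats2, 4 bases after it. For Wwtr1 and Lats2 the window of 1 start is drawn.

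In low glutamine, 9 of the 10 genes were higher than in control by limma at an adjusted p under 0.05, and Yap1 did not pass, in a fit of every gene above 0 in at least 1 library. In that fit 30.2% of 18846 genes were higher, 18.6% were lower and 48.8% passed in either direction. The filtered fit required a mean of 1 RPKM or more, and of its 11082 genes 36.1% were higher, 30.3% were lower and 66.4% passed in either direction. Here 6 of the 7 tested members were higher and 0 were lower. Of these 6, Wwtr1 passed the limit of 1 RPKM through its low glutamine values. Lats2, Ctgf and Ankrd1 fell under that limit, and their tests below are from the fit without it. For all 10 genes the 3 low glutamine values lay above the 3 control values, which held for 36.0% of the 18846 genes above 0. The median log2 fold change of the 10 was 1.11, beside 0.02 over all 18846 genes. Every log2 fold change is of RPKM + 1 in low glutamine over control and is given with its SE, and limma p-values carry Benjamini-Hochberg adjustment over all genes tested. This scale compresses low values, so plain ratios of the mean RPKM are given beside it.

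**Figure D2:**
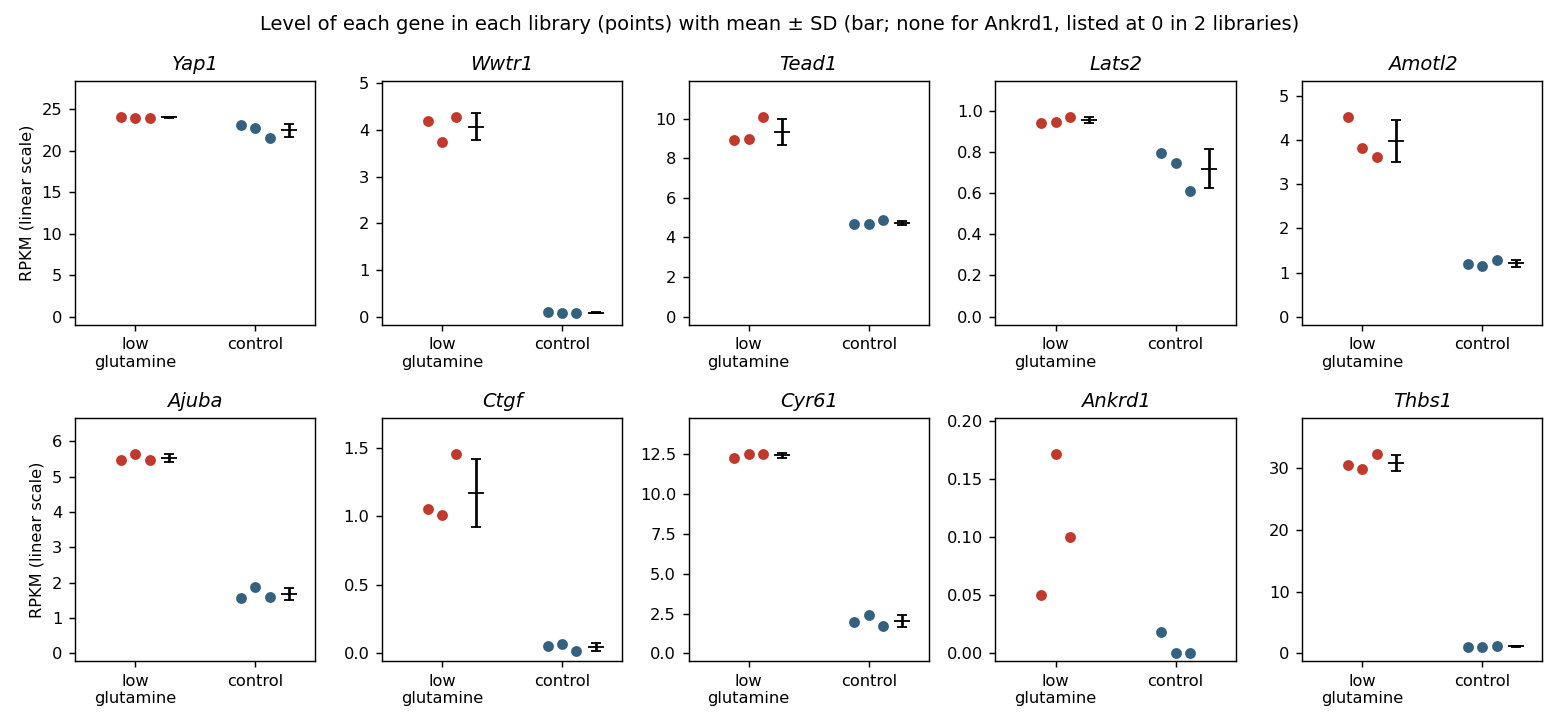
RPKM (linear axis) of the 10 genes in each low glutamine (red) and control (blue) library, points in replicate order, with the group mean and SD as a bar except for Ankrd1. The groups do not overlap for any gene, and Yap1 is the gene with the smallest ratio, 1.07.

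The coactivator pair differed in which member changed. Yap1 (chromosome 9, 7931999 to 8004638), which encodes YAP, measured 24.1, 24.0 and 24.0 RPKM in low glutamine and 23.1, 22.7 and 21.6 RPKM in control. The groups did not overlap, yet the log2 fold change was 0.09 ± 0.05 and did not pass (limma adjusted p = 0.12), with a 95% interval from -0.02 to 0.20. In the fit without the filter it was 0.09 ± 0.03 and narrowly did not pass (limma adjusted p = 0.055). The 95% interval there, not adjusted for the number of genes, ran from 0.02 to 0.17. Yap1 passed as higher when libraries were rescaled to a common sum (0.22), rescaled to a common sum without the ribosomal RNA precursor Rn45s (0.24) or quantile normalised (0.17). Over all tested genes the median was 0.03 as deposited, 0.14 and 0.17 with these common-sum rescalings and 0.02 with quantile normalization. Yap1 stood 0.07 above that median under each rescaling and 0.15 above it with quantile normalization, beside 0.06 as deposited.

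Wwtr1 (chromosome 3, 57455644 to 57575910), which encodes the paralog TAZ, measured 4.19, 3.74 and 4.28 RPKM in low glutamine and 0.107, 0.0827 and 0.0770 RPKM in control. It was at low single-digit RPKM in each low glutamine library and near 0 in each control library. The mean was 45.8 times higher in low glutamine (log2 fold change 2.22 ± 0.07, limma adjusted p = 3.1e-11), rank 75 among the 11082 tested genes from the largest rise. The table's values came out as whole reads for this gene, 682, 590 and 578 in low glutamine and 16, 14 and 9 in control, so the control level rested on 39 reads in all. Since its control values lay under the 1 RPKM limit, Wwtr1 entered the filtered fit and its ranking through its low glutamine values. In the fit without the filter the log2 fold change was 2.22 ± 0.05 (limma adjusted p = 3.3e-06).

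As a share of the summed Yap1 and Wwtr1 RPKM, Wwtr1 made up 14.5% ± 0.857 (SD, n = 3) in low glutamine and 0.393% ± 0.0591 in control. The groups did not overlap (exact permutation test, two-sided p = 0.1, the smallest that 3 against 3 allows). Yap1 remained the more abundant of the pair in all 6 libraries. The summed level was 28.1 ± 0.317 RPKM in low glutamine and 22.6 ± 0.811 RPKM in control.

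Tead1 (chromosome 7, 112679356 to 112906784), a DNA-binding partner of YAP and TAZ, measured 8.91, 8.97 and 10.1 RPKM in low glutamine and 4.67, 4.70 and 4.87 RPKM in control. The groups were well apart, and the mean was 1.96 times higher in low glutamine (log2 fold change 0.84 ± 0.06, limma adjusted p = 7.2e-08). The 4 TEAD genes encode factors with a shared DNA-binding domain, and they differed in their change. Tead2 measured 13.7, 12.9 and 15.9 RPKM in low glutamine and 3.92, 3.56 and 3.46 RPKM in control (1.70 ± 0.07, limma adjusted p = 8.6e-10). Tead3 averaged 6.38 ± 0.0499 RPKM in low glutamine and 6.98 ± 0.715 RPKM in control and did not pass (-0.11 ± 0.06, limma adjusted p = 0.16), and its sign turned under other scalings. Tead4 was the least abundant of the 4 in every library, at 0.293 ± 0.0793 RPKM in low glutamine and 0.0627 ± 0.0173 RPKM in control.

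The TEAD genes summed to 30.2 ± 2.18 RPKM in low glutamine and 15.4 ± 0.655 RPKM in control. Tead1 held nearly the same share of that sum in both groups, 30.9% ± 0.654 in low glutamine and 30.8% ± 1.85 in control. Tead2 held 46.9% ± 1.78 in low glutamine and 23.6% ± 1.8 in control, while Tead3 held 21.2% ± 1.44 and 45.2% ± 2.73 in the same order. The Tead2 and Tead3 shares did not overlap between groups (exact permutation test, two-sided p = 0.1 each, the smallest possible), and the Tead1 shares did (p = 1.0). The most abundant TEAD transcript was Tead2 in low glutamine and Tead3 in control. The ratio of summed TEAD to summed Yap1 and Wwtr1 RPKM was 1.07 ± 0.0693 in low glutamine and 0.684 ± 0.0244 in control.

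**Figure D3:**
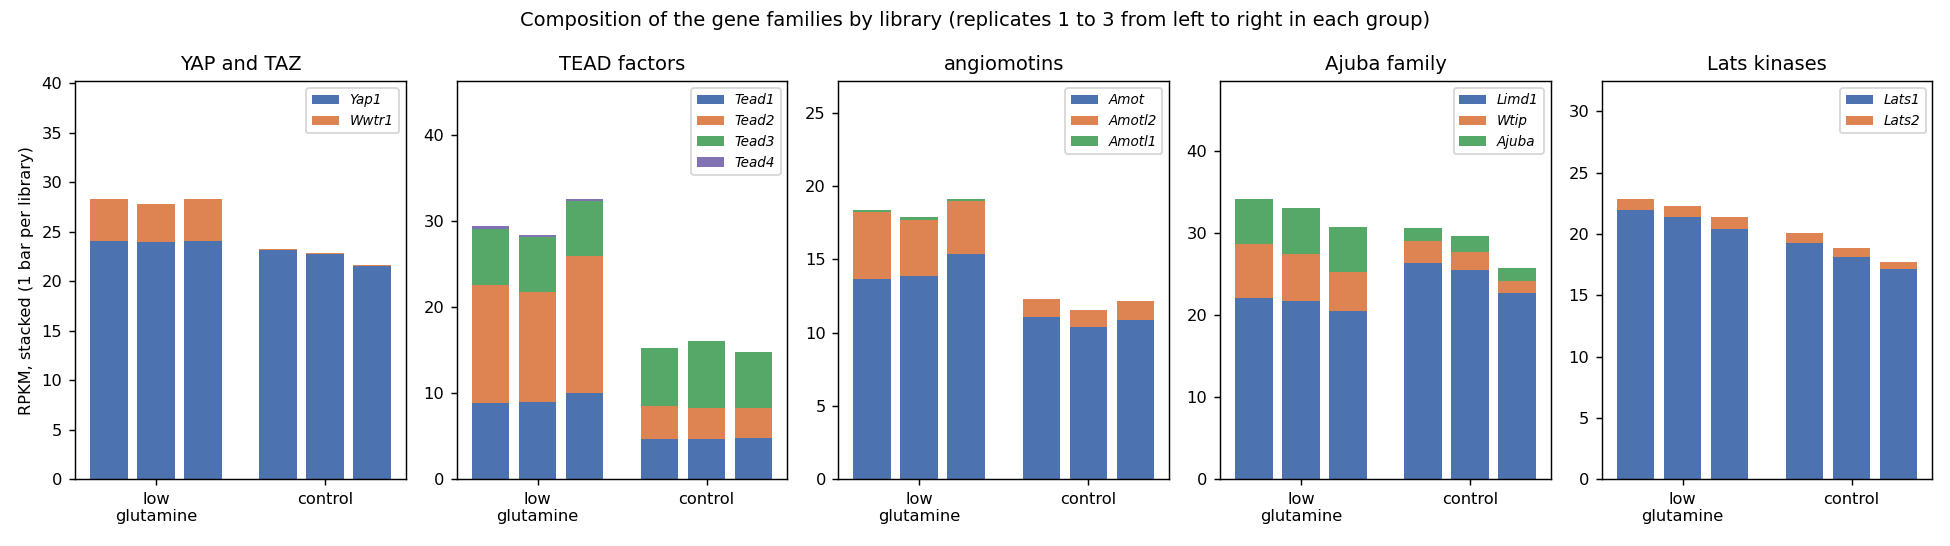
Stacked RPKM (linear axis from 0) of 5 gene families in each low glutamine and control library. Wwtr1 is visible only in the low glutamine bars, and Tead2 makes up 46.9% of the TEAD sum in low glutamine and 23.6% in control.

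Among the kinases, Lats2 (chromosome 14, 57689662 to 57746212), which phosphorylates YAP and TAZ, measured 0.942, 0.946 and 0.969 RPKM in low glutamine and 0.796, 0.748 and 0.612 RPKM in control. These values equal 178, 173 and 152 reads in low glutamine and 138, 147 and 83 reads in control. The ratio of means was 1.33, and the log2 fold change of 0.19 ± 0.05 passed narrowly (limma adjusted p = 0.02, fit without the filter). The call was lost without low glutamine replicate 1, 2 or 3 (adjusted p = 0.053, 0.051 and 0.055), and with quantile normalization the sign turned (-0.08, adjusted p = 0.2). Its paralog Lats1, 21.2 ± 0.763 RPKM in low glutamine and 18.2 ± 1.09 RPKM in control, rose by 0.21 ± 0.06 (limma adjusted p = 0.0058). Lats2 made up 4.30% ± 0.212 of the summed Lats RPKM in low glutamine and 3.79% ± 0.295 in control, so Lats1 was the main Lats transcript in both.

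For the rest of the core machinery a list of 18 genes was used (kinases, scaffolds, coactivators, TEAD factors and the TEAD-binding Vgll cofactors), of which 4 are among the 10. Of the other 14, 10 were tested, 4 rose, 1 fell and 5 did not pass. Their median log2 fold change was -0.02, beside 0.03 over all 11082 tested genes, of which 36.1% rose and 30.3% fell. Besides Tead2 and Lats1, the 4 that rose were Vgll4, a cofactor that competes with YAP for TEAD, at 29.4, 28.2 and 27.2 RPKM in low glutamine and 18.6, 19.2 and 16.4 RPKM in control, and the kinase Stk3, which rose by 0.23. Mob1b, an adaptor that activates Lats kinases, fell by 0.26, a call lost, with the sign kept, when libraries were rescaled without Rn45s. Stk4, Sav1, Mob1a, the tumour suppressor Nf2 and Tead3 did not pass, and the signs of these 5 turned under other scalings. With rescaling without Rn45s Nf2, Mob1a and Sav1 passed as higher, as did Nf2 with the other common-sum rescaling and Mob1a with quantile normalization. Stk4 passed as lower with median-of-ratios scaling, and Tead3 with quantile normalization. Sav1 measured 14.7 ± 0.662 RPKM in low glutamine and 14.7 ± 1.06 RPKM in control, and Nf2 16.1 ± 0.544 and 16.6 ± 0.392 RPKM in the same order.

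Amotl2 (chromosome 9, 102717091 to 102733418) encodes an angiomotin, a junction protein that binds YAP and holds it in the cytoplasm. It measured 4.52, 3.82 and 3.61 RPKM in low glutamine and 1.19, 1.14 and 1.29 RPKM in control. The groups did not overlap, and the mean was 3.30 times higher in low glutamine (log2 fold change 1.17 ± 0.07, limma adjusted p = 3.2e-08). The reads behind it were 645, 527 and 427 in low glutamine and 156, 169 and 132 in control. The X-linked Amot averaged 14.3 ± 0.908 RPKM in low glutamine and 10.8 ± 0.361 RPKM in control and rose by 0.37 ± 0.06 (limma adjusted p = 9.6e-05). Amotl2 held 21.6% ± 2.88 of the summed angiomotin RPKM in low glutamine and 10.1% ± 0.479 in control, and Amot stayed the most abundant.

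Ajuba (chromosome 14, 54567469 to 54577661) encodes a LIM-domain protein that binds Lats kinases and inhibits them. It measured 5.47, 5.65 and 5.48 RPKM in low glutamine and 1.57, 1.88 and 1.60 RPKM in control. The mean was 3.28 times higher in low glutamine (log2 fold change 1.28 ± 0.06, limma adjusted p = 2.3e-09). The reads behind it were 652, 652 and 542 in low glutamine and 172, 233 and 137 in control. The related Wtip measured 6.64, 5.76 and 4.72 RPKM in low glutamine and 2.70, 2.24 and 1.49 RPKM in control (1.10 ± 0.13, limma adjusted p = 1.2e-05). Limd1, the most abundant gene of the family, averaged 21.4 ± 0.787 RPKM in low glutamine and 24.8 ± 1.90 RPKM in control and fell by 0.20. That call was lost without control replicate 1 and under 3 of 4 other scalings. Ajuba held 17.0% ± 0.909 of the summed RPKM of the 3 genes in low glutamine and 5.90% ± 0.662 in control. The Amotl2 and Ajuba shares each differed without overlap at the smallest p of the exact permutation test, 0.1.

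Of 32 regulators upstream of the Lats kinases, 30 are not among the 10, and 25 of these were tested: 11 rose, 6 fell and 8 did not pass, with a median of 0.12. Over all tested genes 36.1% rose and 30.3% fell, with a median of 0.03. Ptpn14, a phosphatase that binds YAP and is also a known YAP target, had the widest gap. It measured 3.18, 2.97 and 3.34 RPKM in low glutamine and 0.0596, 0.0473 and 0.0724 RPKM in control, a ratio of 52.9. It passed the filter through its low glutamine values, and in the fit without the filter the log2 fold change was 1.97 ± 0.04 (limma adjusted p = 2.7e-06). Within the MAP4K kinases, which act on Lats kinases in parallel with Stk3 and Stk4, the members differed in direction. Map4k4 measured 29.8, 29.1 and 30.4 RPKM in low glutamine and 13.8, 14.0 and 13.3 RPKM in control (1.07 ± 0.05, limma adjusted p = 2.0e-09). The related Tnik fell by 0.86 to 4.99, 5.24 and 5.68 RPKM in low glutamine, against 10.7, 10.3 and 10.3 RPKM in control. The related Mink1 fell by 0.33, and the polarity gene Mpp5 fell by 0.56 to 9.14 ± 0.615 RPKM in low glutamine, against 14.0 ± 0.366 RPKM in control. Other polarity genes went both ways. Llgl1 rose (0.20 ± 0.06, limma adjusted p = 0.0067). Patj rose as well (0.16 ± 0.05, limma adjusted p = 0.016), a call lost without low glutamine replicate 1. Crb3 fell (-0.27 ± 0.08, limma adjusted p = 0.0087), a call lost with both common-sum rescalings. Scrib, Dlg1 and Pard3 did not pass, though Dlg1 and Pard3 passed as higher with both common-sum rescalings. Dlg1 also passed as higher with quantile normalization, and Scrib passed the threshold without control replicate 3.

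Among the targets, Cyr61 (chromosome 3, 145646971 to 145649985), a secreted matricellular protein of the CCN family, measured 12.3, 12.5 and 12.5 RPKM in low glutamine and 1.96, 2.44 and 1.74 RPKM in control. The low glutamine libraries were close to each other, with an SD of 0.147 RPKM. The mean was 6.08 times higher (log2 fold change 2.15 ± 0.08, limma adjusted p = 1.2e-10). Its reads were 846, 834 and 718 in low glutamine and 124, 175 and 86 in control.

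Ctgf (chromosome 10, 24595442 to 24598683), the related CCN protein that is the most used readout of YAP activity, was far lower in level. It measured 1.05, 1.01 and 1.46 RPKM in low glutamine and 0.0533, 0.0706 and 0.0170 RPKM in control. These were 86, 80 and 99 reads in low glutamine and 4, 6 and 1 reads in control. The ratio of means was 25.0 and rests on 11 control reads, while the log2 fold change on the compressed scale was 1.05 ± 0.08 (limma adjusted p = 1.7e-04, fit without the filter). Cyr61 was the main CCN transcript in both media, at 90.5% ± 1.12 of the summed family RPKM in low glutamine and 89.7% ± 1.89 in control (exact permutation test, two-sided p = 0.7). The family sum was 13.7 ± 0.289 RPKM in low glutamine and 2.27 ± 0.351 RPKM in control.

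Ankrd1 (chromosome 19, 36111965 to 36119844), a nuclear ankyrin-repeat protein best known from heart muscle, was barely detected. It measured 0.0499, 0.172 and 0.10 RPKM in low glutamine, or 3, 10 and 5 reads, and in control 0.0181 RPKM (1 read) in replicate 1, with a listed 0 in replicates 2 and 3. The low glutamine values were above the control values, but 18 reads against 1 read are few. The log2 fold change was 0.14 ± 0.04 (limma adjusted p = 0.033, fit without the filter). This call was lost when replicate number was a block (adjusted p = 0.052), with quantile normalization (0.065), and without control replicate 1, 2 or 3 (0.067, 0.088 and 0.087) or low glutamine replicate 3 (0.077).

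Thbs1 (chromosome 2, 118111876 to 118127133), thrombospondin-1, a secreted glycoprotein that acts on matrix adhesion and vessel growth, showed the largest log2 fold change of the 10. It measured 30.5, 29.9 and 32.4 RPKM in low glutamine and 1.07, 1.12 and 1.26 RPKM in control. The mean was 26.9 times higher in low glutamine (log2 fold change 3.89 ± 0.06, limma adjusted p = 8.8e-14), rank 17 among the 11082 tested genes from the largest rise. Of the thrombospondin family, Thbs1 made up 99.3% ± 0.155 of the summed RPKM in low glutamine and 85.3% ± 2.62 in control, and no other member averaged 1 RPKM.

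The order of the 10 levels differed between the groups. In low glutamine it ran Thbs1, Yap1, Cyr61, Tead1, Ajuba, Wwtr1, Amotl2, Ctgf, Lats2 and Ankrd1, and among neighbours only Wwtr1 and Amotl2 had overlapping values. In control it ran Yap1, Tead1, Cyr61, Ajuba, Amotl2, Thbs1, Lats2, Wwtr1, Ctgf and Ankrd1. There the values of Cyr61 and Ajuba, of Amotl2 and Thbs1, and of Ctgf and Ankrd1 overlapped. These are RPKM levels, which are per length and so comparable between genes within the limits of the annotation used.

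A 22-gene list of YAP/TAZ targets, compiled in cancer studies in humans and applied here by mouse symbol, holds 5 of the 10 genes. Of the other 17, 10 were tested: 6 rose, 1 fell and 3 did not pass, with a median of 0.60. Over all tested genes 36.1% rose and 30.3% fell, with a median of 0.03. Of the 6, Ptpn14, Rbms3, Arhgef17 and Myof were under 1 RPKM in control and passed the filter through their low glutamine values, so this count and median are partly set by the filter. Without the filter 11 of 16 rose, 1 fell and 4 did not pass, with a median of 0.47. Over all 18846 genes of that fit 30.2% rose and 18.6% fell, with a median of 0.02. F3, tissue factor, the receptor that starts blood clotting, measured 22.0, 20.6 and 21.9 RPKM in low glutamine and 3.86, 4.32 and 3.97 RPKM in control (2.16 ± 0.06, limma adjusted p = 7.9e-12). Rbms3, an RNA-binding protein, measured 3.71, 3.63 and 3.87 RPKM in low glutamine and 0.144, 0.0825 and 0.105 RPKM in control, a ratio of 33.8.

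The other targets that rose were Ptpn14, Arhgef17, Myof and Asap1. Arhgef17 averaged 2.76 ± 0.136 RPKM in low glutamine and 0.483 ± 0.0456 RPKM in control. Myof, a membrane repair protein, averaged 1.81 ± 0.187 and 0.638 ± 0.136 RPKM in the same order, and Asap1, a regulator of Arf GTPases, 2.17 ± 0.167 and 1.37 ± 0.0232 RPKM. Dock5, an exchange factor for Rac, went the other way and fell by 0.61 to 4.55 ± 0.406 RPKM in low glutamine, against 7.47 ± 0.0816 RPKM in control. Crim1, Gadd45a and Nuak2 did not pass. Their means were 5.59 ± 0.0825, 20.9 ± 0.301 and 4.35 ± 0.168 RPKM in low glutamine and 6.00 ± 0.457, 21.4 ± 2.12 and 4.48 ± 0.163 RPKM in control. With quantile normalization Crim1 and Nuak2 passed as lower.

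**Figure D4:**
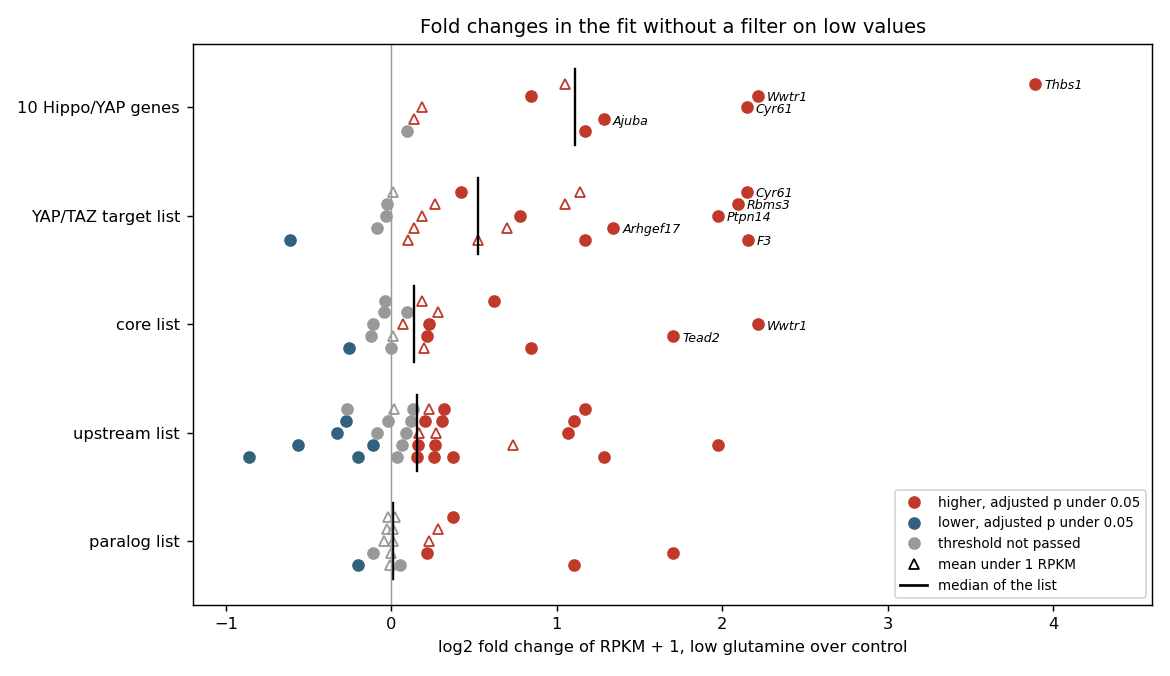
Log2 fold change of RPKM + 1, low glutamine over control, for each gene of 5 lists in the fit without a filter (1 point per gene, coloured by call, triangles for genes with a mean under 1 RPKM, black line for the list median). The 10 genes have a median of 1.11 and the target list of 0.53, while the core, upstream and paralog medians lie between 0.01 and 0.16. The target, core and upstream lists include some of the 10, and without these their medians are 0.47, 0.04 and 0.14.

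Of 18 close relatives of the members, 7 were tested and 11 were under 1 RPKM. Of the 7, 4 rose, 1 fell and 2 did not pass, with a median of 0.21. Over all tested genes 36.1% rose and 30.3% fell, with a median of 0.03. The 4 that rose were Tead2, Wtip, Amot and Lats1. The muscle ankyrin-repeat gene Ankrd23 did not pass, at 1.44 RPKM in low glutamine and 1.34 RPKM in control. With quantile normalization Ankrd23 passed as lower.

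Several members, Thbs1, Ctgf and Cyr61 above all, are also made by fibroblasts, so stromal markers were read beside them. Of 9 fibroblast markers, 8 were under 1 RPKM in every library, and Col3a1 and Lum were listed at 0 in every library. The list summed to 11.0 to 13.0 RPKM in low glutamine and 3.17 to 3.98 RPKM in control. Nearly all of this was Vim, which rose to 11.5 ± 1.08 RPKM in low glutamine, against 3.29 ± 0.406 RPKM in control. The other 8 summed to 0.269 to 0.297 RPKM in low glutamine and 0.284 to 0.316 RPKM in control, with opposite moves within the sum. Fn1 measured 0.181, 0.159 and 0.193 RPKM in low glutamine and 0, 0.00335 and 0 RPKM in control, and was higher (limma adjusted p = 5.4e-05, fit without the filter). Pdgfrb averaged 0.0739 ± 0.00586 RPKM in low glutamine and 0.271 ± 0.0274 RPKM in control, and was lower (limma adjusted p = 1.6e-04, same fit). The 5 muscle markers summed to 0.900 to 1.07 RPKM in low glutamine and 0.775 to 1.16 RPKM in control, most of it Tagln. Without the filter Cnn1 and Myh11 were higher and the other 3 muscle markers did not pass. Cnn1 averaged 0.177 RPKM in low glutamine and 0.0260 RPKM in control, and Myh11 0.0501 and 0.0106 RPKM in the same order. The 5 endothelial markers summed to 0.289 to 0.471 RPKM in low glutamine and 0.165 to 0.205 RPKM in control. Of the 4 tested without the filter, Pecam1 was higher and 3 did not pass. The 6 immune markers summed to 2.54 to 2.58 RPKM in low glutamine and 1.91 to 2.08 RPKM in control. Most of the low glutamine sum was Cd68, and moves within the sum were opposite. Cd68 measured 1.79, 2.05 and 2.16 RPKM in low glutamine and 0.565, 0.702 and 0.788 RPKM in control. Itgam measured 0.232, 0.246 and 0.212 RPKM in low glutamine and 0.910, 0.766 and 0.673 RPKM in control. Of the 5 tested without the filter, Cd68 was higher, Itgam was lower and 3 did not pass. The part of these markers in the results was not tested.

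Gene models overlapping the 10 on either strand may share their reads, since the strandedness was not given in the sources used here. GENCODE M21 lists 9 such models at 6 of the genes, among them the protein-coding Gm49361 at Lats2 and non-coding genes opposite Yap1, Ctgf and Thbs1, and 0 of the 9 were rows of the table. Amotl2, Ajuba, Cyr61 and Ankrd1 overlap none.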

How the data were processed

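The authors deposited RPKM values (reads scaled to transcript length and library depth), 1 column per library. Tools named in the submitters' processing notes are Partek, HISAT2 2.0.4 and CASAVA 1.8, and the build named there is mm10; their roles, the annotation and the counting rule are not given in the sources used here. RPKM values are not counts, so limma 3.58.1 (R 4.3.3, variance trend, two-sided) was run on log2(RPKM + 1) for 11082 genes averaging 1 RPKM or more, and again for all 18846 genes above 0. Benjamini-Hochberg adjustment ran over all genes tested, with a threshold of 0.05. The test was checked on simulated data. Python 3.11.15 with pandas 2.3.3, numpy 2.4.6, scipy 1.17.1 and matplotlib 3.10.9 served for the rest.

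Depth was estimated from single-exon genes, whose RefSeq length gives the value of 1 read. Of the low values checked, 67.8% to 73.6% were whole reads within 0.02, including 76 to 97 values per library that set the depth. At these depths the RPKM of 7 of the 10 genes were whole reads within 0.02 in all 6 libraries at a single length (1765 to 5554 bases), taken as the smallest such solution. No such length was found for Yap1, Tead1 and Thbs1. Low levels carry counting error of that size.

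Replicate numbers recur in both groups. Nothing states what a replicate number marks, so a replicate block was fitted only as an alternative. Deviations of same-numbered libraries from their group means had correlations of 0.15, 0.25 and 0.57. Low glutamine replicate 1 correlated more strongly with control replicate 2 (0.36), so these values do not establish pairs. Members, lists and tests were chosen with earlier results of these data known. Named are the 10 genes and, from the core, upstream and paralog lists, genes of at least 1 RPKM, led by the smallest p, and all tested genes of the target list. Tead4 and single markers were named outside this rule after their values were seen. Coordinates are RefSeq bounds on GRCm38.p6 (mm10), 1-based.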

Additional observations from a re-analysis of the deposited data

How the results depend on the processing

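Wwtr1, Tead1, Amotl2, Ajuba, Cyr61, Thbs1 and Ctgf were higher with an adjusted p under 0.05 in every alternative that could be fitted (13 to 15 each). Their size moved with the pseudocount: with 5 and 0.1 the log2 fold change was 0.83 and 4.47 for Wwtr1, 0.29 and 3.12 for Ctgf, 0.53 and 1.64 for Amotl2, 0.66 and 1.66 for Ajuba, 2.55 and 4.63 for Thbs1, 1.31 and 2.56 for Cyr61, and 0.55 and 0.96 for Tead1. For Lats2 it was 0.058 and 0.37, and for Ankrd1 0.029 and 0.93. Combining the absent filter with other choices for Lats2, Ctgf and Ankrd1 was chosen after seeing the data. The log2 fold change of Lats2 turned to -0.078 with quantile normalization (no filter).

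The members higher in the filtered fit numbered 6, and 6 with the replicate block and 6 without each library in turn. Of all 11082 genes, 4001 were higher in the filtered fit and 4192 with the replicate block. With a mean of at least 5 RPKM, 3 of 4 tested members were higher, beside 2532 of all 7994 genes tested. These 3 members, Tead1, Cyr61 and Thbs1, averaged 4.74, 2.04 and 1.15 RPKM in control. They passed the limit of 5 RPKM through their low glutamine values. Members called lower were 0 throughout. Besides Ankrd1, the replicate block changed no call of the 10.

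Over all tested genes, 2532 of 7994 were higher with a mean of at least 5 RPKM. With rescaling without Rn45s 6040 of 11097 were higher, beside 4001 of 11082 in the filtered fit. Without a library 3605 to 3913 were higher and 2938 to 3647 lower, with 11032 to 11122 genes tested. Of the calls in the filtered fit, 54.4% were higher, against 69.1% and 71.7% with the rescalings to a common sum.

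In the core list 6 rose and 1 fell. Without the filter 10 rose. Rescaling without Rn45s gave 10 higher and 0 lower, and 2 fell with median-of-ratios scaling or quantile normalization. Leaving out a library gave 6 higher and 1 to 2 lower, the 2 without low glutamine replicate 3. In the upstream list 7 rose with a mean of at least 5 RPKM, beside 13, and 11 to 14 rose and 5 to 7 fell without a library. In the target list 16 rose without the filter and 2 with a mean of at least 5 RPKM, beside 8, and 3 fell with quantile normalization, beside 1. Leaving out a library left these at 8 and 1. In the paralog list 0 fell with either rescaling to a common sum and 2 with quantile normalization, beside 1. Without a library 4 rose and 0 to 1 fell, the 0 without control replicate 1. The causes were not tested. Depth limits Ankrd1 (18 reads in low glutamine and 1 in control) and the control level of Ctgf (11 reads).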
